A study of Homo sapiens with 4 samples.

Results

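The genes described here were 10 regulators of N6-methyladenosine (m6A) in RNA. They comprised the writers METTL3, METTL14, WTAP, ZC3H13 and RBM15, the erasers FTO and ALKBH5, and the readers YTHDF1, YTHDF2 and YTHDF3. They were matched by gene symbol in the peak lists of an NSUN2 RNA immunoprecipitation in PANC-1 cells, where 9 of the 10 had at least 1 peak, among 15016 gene symbols with a peak in all. RBM15 had no peak in either list.

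RNA immunoprecipitation sequencing (RIP-seq) sequences RNA recovered with an antibody to the protein that binds it. The protein here was NSUN2, an RNA methyltransferase that makes 5-methylcytosine (m5C). Wild-type PANC-1, an established human pancreatic ductal adenocarcinoma cell line, was kept for 24 h with sodium lactate at 30 mM or with ddH2O as the vehicle. Each condition had 1 library of RNA from the immunoprecipitation (IP) with anti-NSUN2 antibody on protein A/G beads and 1 library of input RNA taken before it, 4 libraries in all. With 1 library per group, no difference below has a replicate check, and intervals on reads and ratios cover counting error only. Intervals on shares treat peaks or windows as separate draws, although 29 of the 82 windows described below lie in runs that share bases.

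m6A is a methyl mark on adenosines of mRNA. A complex built around METTL3 and METTL14 writes it, the demethylases FTO and ALKBH5 can remove it, and proteins with a YTH domain bind it and pass the mRNA on to decay or translation. NSUN2 writes a different mark, so the question that these data can address is how often the transcripts of the m6A machinery were themselves recovered in the NSUN2 IP, where on the transcript, and at what density with and without lactate.

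A peak is a stretch where an IP library stood above its own input, with a fold over input and a q-value from the peak caller. The labelled cell type was checked on marker genes. The ductal keratins KRT7, KRT8, KRT18 and KRT19 each had a peak in both lists, and the densest KRT18 window held 2737 lactate reads and 8085 ddH2O reads. PECAM1 of endothelium, INS of beta cells and PRSS1 of acinar cells had none, and the leukocyte gene PTPRC had 1 ddH2O peak over a window of 3 reads. A gene without a peak may still have been transcribed.

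Peaks on the m6A genes were fewer with lactate. The lactate list held 38 of them on 6 genes and the ddH2O list 67 on 9 genes, a ratio of 1.76, while peaks on all protein-coding genes numbered 40883 and 78491, a ratio of 1.92. The lower number thus ran through the whole lactate list. METTL3, METTL14 and YTHDF1 had peaks with ddH2O and none with lactate, and no m6A gene had the reverse. Of all 20052 protein-coding genes in RefSeq, 47.1% had a lactate peak and 58.4% a ddH2O peak. A ddH2O peak alone was found on 2777 of them (13.8%) and a lactate peak alone on only 519, so the reverse was rare among all genes too.

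Most of the peaks lay in introns. Introns held 26 of the 38 lactate peaks (68.4%, 95% Wilson interval 52.5 to 80.9%) and 48 of the 67 ddH2O peaks (71.6%, 59.9 to 81.0%). Over all protein-coding genes the intron shares were 61.5% and 61.2%. FTO, by far the longest of these genes at 418 kb, carried 14 and 30 of the intron peaks, and without it the shares were 54.5% and 48.6%. Peaks labelled exon numbered 9 with lactate and 16 with ddH2O, those labelled 3' UTR 2 in each list, and the 5' UTR of WTAP held 1 in each list. The exon label was given on 1 transcript per peak. Whether such a peak lay in a UTR of another transcript was not checked. The shares labelled 3' UTR were 5.26% (1.46 to 17.3%) with lactate and 2.99% (0.822 to 10.2%) with ddH2O. Over all protein-coding genes they were higher, at 18.1% and 15.8%, outside these intervals. Without FTO the shares were 4.55% and 5.41%, with intervals up to 21.8% and 17.7%, which took in those of all protein-coding genes. Many peaks of the m6A genes were weak by the peak caller's own measure. The q-value was under 0.05 at 18 lactate peaks (47.4%) and at 37 ddH2O peaks (55.2%), beside 44.6% and 50.9% over protein-coding genes.

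**Figure D1:**
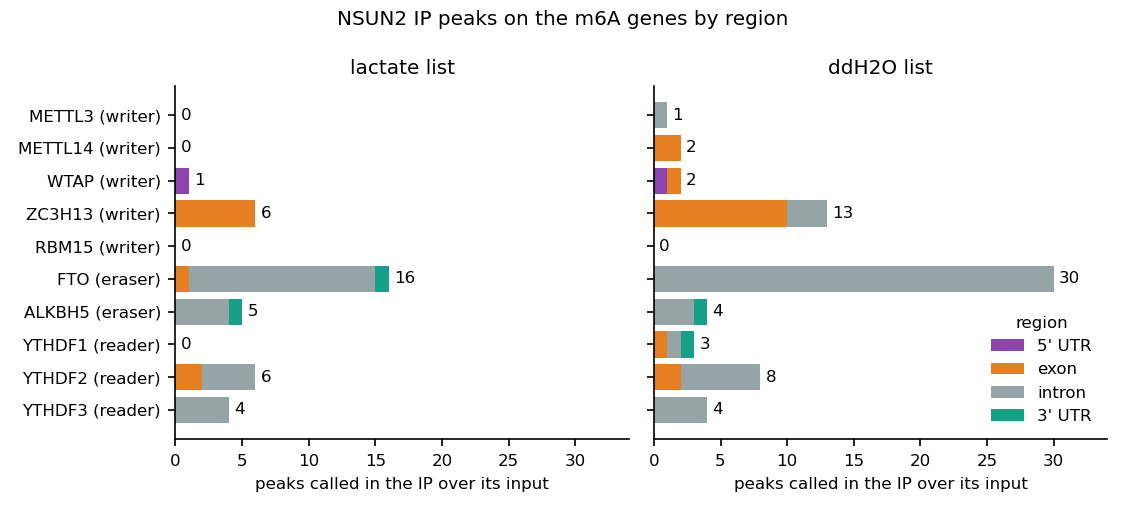
Peaks called in each NSUN2 IP over its input on the 10 m6A genes, as stacked bars by the annotated region, with the total at the end of each bar. FTO held the most peaks in each list (16 and 30), nearly all in introns, and the peaks of ZC3H13 lay mostly in exons.

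Of the 38 lactate peaks, 23 overlapped a ddH2O peak of the same gene set by at least 1 base (60.5%, 44.7 to 74.4%). In the ddH2O list 22 of 67 did so with lactate peaks (32.8%, 22.8 to 44.7%). The shares over all protein-coding genes were 58.3% and 29.8%, so the m6A genes shared peaks between the lists about as often as other genes did. Merging the lists gave 82 peaks on the m6A genes, of which 22 came from both lists, 15 from the lactate list alone and 45 from the ddH2O list alone. These shares of 26.8%, 18.3% and 54.9% stood near the 22.6%, 18.0% and 59.4% of all merged peaks.

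For each merged peak a normalized read density was available for both IP libraries, in reads per kb of a 2000-base window around the summit. The reads behind each density could be computed back. The median window of the m6A genes held 5.5 lactate and 7 ddH2O reads, and over all 116484 merged peaks the medians were 5 and 7. Only 32 of the 82 windows held at least 20 reads over both libraries, the minimum used for calling a ratio. Densities were not divided by the input, so a change in the amount of an RNA and a change in its recovery by NSUN2 cannot be told apart.

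Among those 32 windows, 3 were over 2-fold higher in the lactate IP (9.38%, 3.24 to 24.2%), beside 7.65% of the 37925 merged peaks with as many reads. A further 8 were over 2-fold lower (25%, 13.3 to 42.1%), beside 18.6% of all. The median log2 ratio was 0.09 over the 32 windows and -0.20 over all windows with as many reads, and under the sums described next the order turned, at 0.00410 and 0.126.

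The split between higher and lower depended on how the libraries were scaled. The densities come from MAnorm, which lets the correction grow with density. When the reads were scaled instead by their sums over all windows outside MT-RNR2 and MALAT1, which were 1945000 with lactate and 3536821 with ddH2O, the median log2 ratio of all 116484 merged peaks, with no minimum of reads, moved by 0.56. Then 6 windows of the m6A genes were higher and 5 lower, beside 17% and 8.77% of all. Higher windows made up 27.3% of the called m6A windows under MAnorm and 54.5% under the sums, and 29.2% and 66.0% of all called windows. Of the 8 windows that were lower under MAnorm, 5 were still past 2-fold under the sums, and so were all 3 higher ones. Leaving out MT-RNR2 and MALAT1 mattered for these sums. The FTO window at chr16:54046762-54047264, with 18 reads in each library, stood at 0.86 under them. It stood at -0.03 when the sums took in all windows. The sums over all windows were thus nearly equal, and windows of MT-RNR2 and MALAT1 held a larger share of the lactate reads.

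**Figure D2:**
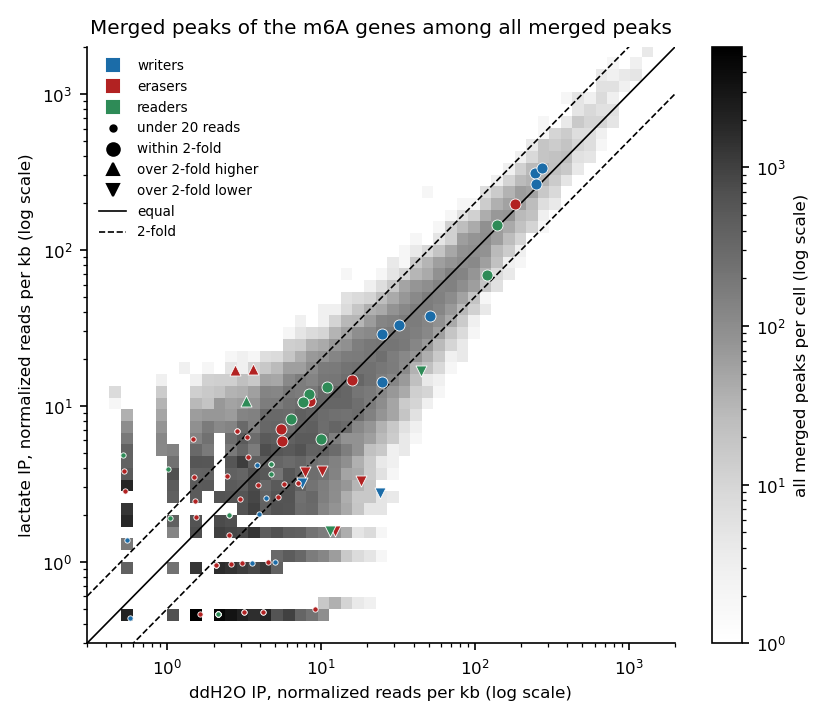
Normalized read density of the 82 merged peaks of the m6A genes in the lactate IP against the ddH2O IP, both on log axes, in color by role, over a gray grid that counts all 116484 merged peaks. The dense windows of ZC3H13, ALKBH5 and YTHDF2 lay near the line of equal density, and the 3 windows over 2-fold higher and 8 over 2-fold lower lay at lower densities than these.

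METTL3, the catalytic subunit of the writer complex (ENSG00000165819), had 1 peak, with ddH2O, in an intron at chr14:21505270-21505570 in GRCh38. It stood 4.85-fold over input with a q-value of 0.000218. Its window held 0 lactate reads (exact Poisson interval 0 to 3.69) and 7 ddH2O reads (2.81 to 14.4), too few for calling a ratio. The last bases of METTL3 also lie under the 3' UTR of TOX4, its neighbor, where a lactate peak was called at chr14:21498935-21499152 and the window held 39 lactate and 75 ddH2O reads. The library kit does not mark the strand, so reads of overlapping genes cannot be told apart there. The same holds for 5 FTO peaks inside the lncRNA gene LOC124903691 and for the METTL14 window that reaches METTL14-DT.

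METTL14, the partner of METTL3 that helps to bind the RNA (ENSG00000145388), had 2 exon peaks with ddH2O and none with lactate. The stronger lay 0.20 kb from the 5' end of the gene, at chr4:118685475-118685708, at 3.51-fold over input, with 3 lactate and 7 ddH2O reads. The other lay at chr4:118689186-118689573 with 4 and 8 reads, also below the minimum of 20 reads for calling a ratio. Its log2 ratio was -0.76 (-3.09 to 0.99), and 0.01 under the sums. At this depth a difference between the conditions was not detectable for METTL14.

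WTAP, which anchors the writer pair in nuclear speckles (ENSG00000146457), had its 5' UTR peak in both lists. The merged peak at chr6:159726352-159726675 lay just upstream of the start of WTAP in RefSeq and within the span of SOD2, and held 23 lactate reads and 58 ddH2O reads. The density was 14.3 with lactate and 24.7 with ddH2O, a log2 ratio of -0.79 (-1.59 to -0.11), -0.43 under the sums and -1.33 when the sums took in all windows. Its fold over input was low in both lists, at 2.71 and 2.35. The exon peak of WTAP in the ddH2O list stood at 2.43-fold with a q-value of 0.816 and had no read in its window in either library. Inside the WTAP span, 5 further peaks were assigned to SOD2, and the densest of their windows held 42 lactate and 36 ddH2O reads.

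ZC3H13, a zinc finger protein of the regulatory part of the complex (ENSG00000123200), had the densest windows of all 10 genes. Its 6 lactate peaks lay in exons, and of its 13 ddH2O peaks 10 did. The densest merged peak, an exon stretch of 1144 bases at chr13:45969503-45970646, held 446 lactate reads (406 to 489) and 821 ddH2O reads (766 to 879). Only 0.377% of all merged peaks were denser. The density was 337 with lactate and 272 with ddH2O, a log2 ratio of 0.31 (0.14 to 0.47), which became -0.02 under the sums and -0.91 when the sums took in all windows. The direction at this window therefore rested on the scaling. This merged peak stood 11.1-fold over input with ddH2O. With lactate, the peaks at chr13:45969503-45970026 and chr13:45970237-45970599 inside it stood at 8.22-fold and 3.75-fold.

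The strong ZC3H13 windows formed a cluster toward the 3' part of the gene. Dense exon peaks at chr13:45968617-45969124 and chr13:45975144-45975952 held 414 and 741, and 356 and 745 reads with lactate and ddH2O, at log2 ratios of 0.33 and 0.08, which were 0.02 and -0.20 under the sums. Together with the densest peak and with chr13:45967700-45968139 they lay between 77.2 and 84.8 kb from the 5' end of the 98.3 kb gene. The last of these gave the highest lactate fold of any m6A gene, 12.1-fold, with 58 and 129 reads. The windows of the 3 peaks nearest the 3' end form a run in which neighbors share bases, so their reads were in part the same.

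Next to this cluster, 1 exon peak of ZC3H13 was found with ddH2O alone. At chr13:45979648-45980158, 72.8 kb from the 5' end, it had the highest fold of any peak on the m6A genes, 13.7-fold over input with ddH2O. The lactate window held 4 reads (1.09 to 10.2) and the ddH2O window 53 (39.7 to 69.3), a log2 ratio of -3.12 (-5.35 to -1.98). Under the sums it was -2.57. The exon peak at chr13:46003272-46003506, with 5 and 15 reads, was also over 2-fold lower at -1.23, just at the minimum of 20 reads. Its interval reached 0.13, and under the sums it was -0.55 and no longer past 2-fold. For these exons the reads in the window were few for the q-values listed with ddH2O, 2.58e-120 and 6.78e-16. The reads from which the peak caller worked were not analysed here.

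RBM15, an RNA-binding protein that brings the complex to its targets, had no peak with either treatment. The neighboring antisense gene RBM15-AS1 had 3 ddH2O peaks, none with a q-value below 0.05 and the densest with 3 lactate and 9 ddH2O reads. It was picked for mention after its values were seen, as were TOX4, SOD2 and YTHDF2P1.

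FTO (ENSG00000140718), a demethylase whose gene is the longest here, had 16 lactate and 30 ddH2O peaks. Per 100 kb these were 3.83 and 7.18 peaks, beside 3.07 and 5.90 over the summed length of all protein-coding genes, and medians of 6.74 and 11.1 over those with a peak. For the 773 protein-coding genes of at least 300 kb the medians were 0.294 and 0.837, and 120 and 148 of them had more peaks per 100 kb than FTO. The 39 merged peaks of FTO had low counts, with a median of 12 reads over both libraries, and 9 of them reached 20 reads. The q-value was under 0.05 at 5 FTO peaks with lactate and at 13 with ddH2O.

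The densest FTO window was that of a 3' UTR peak listed with lactate alone, at chr16:54113397-54113596, although it held 24 lactate and 36 ddH2O reads. Its densities were 14.7 and 15.8, a log2 ratio of -0.11 (-0.94 to 0.66) that was 0.30 under the sums, so no difference was detectable. Between 339 and 343 kb from the 5' end, introns of FTO held a group of 6 merged peaks. In this group the windows at chr16:54044740-54045130 and chr16:54044374-54044573 were over 2-fold higher with lactate. The former held 30 lactate and 5 ddH2O reads, a log2 ratio of 2.63 (1.47 to 4.57), and gave the highest FTO fold of the lactate list, 8.73. The latter held 30 and 7 reads, a ratio of 2.25 (1.18 to 3.83), in a window that shares bases with the former, so they do not count as separate observations. Another merged peak in the group, at chr16:54046762-54047264, was in both lists with 18 reads in each library.

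At 3 other intron windows FTO was over 2-fold lower with lactate. The peak at chr16:53996141-53997209, with the highest FTO fold in the ddH2O list at 12.7, held 5 lactate and 39 ddH2O reads, a log2 ratio of -2.44 (-4.37 to -1.33). At chr16:53949012-53949670 there were 2 and 25 reads, at -2.96 (-6.61 to -1.48). The window at chr16:53938368-53938797 held 6 and 21 reads, at -1.41 (-3.17 to -0.21), and at -0.79 under the sums it was no longer past 2-fold. FTO thus had windows that were higher and windows that were lower within the same gene, all on 44 reads or fewer. Between the lower ones, the window at chr16:53970107-53970580 was in both lists with 12 and 11 reads and a log2 ratio of 0.36, which was 0.98 under the sums.

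ALKBH5, the other m6A demethylase (ENSG00000091542), was the only m6A gene with more lactate than ddH2O peaks, 5 against 4. Its 3' UTR peak at chr17:18209496-18209974, 0.22 kb from the 3' end, was in both lists and held 269 lactate reads (238 to 303) and 525 ddH2O reads (481 to 572). The densities were 196 and 181, a log2 ratio of 0.11 (-0.11 to 0.32), -0.10 under the sums and -0.99 when the sums took in all windows. Of its 5 lactate peaks, this 3' UTR peak alone had a q-value below 0.05. The intron peak with the highest fold in each list, 3.76 with lactate and 7.28 with ddH2O, lay in the merged peak at chr17:18189974-18190516. It held 6 and 16 reads, and its ratio of -1.07 (-2.85 to 0.22) was only just past 2-fold, and was -0.42 under the sums.

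**Figure D3:**
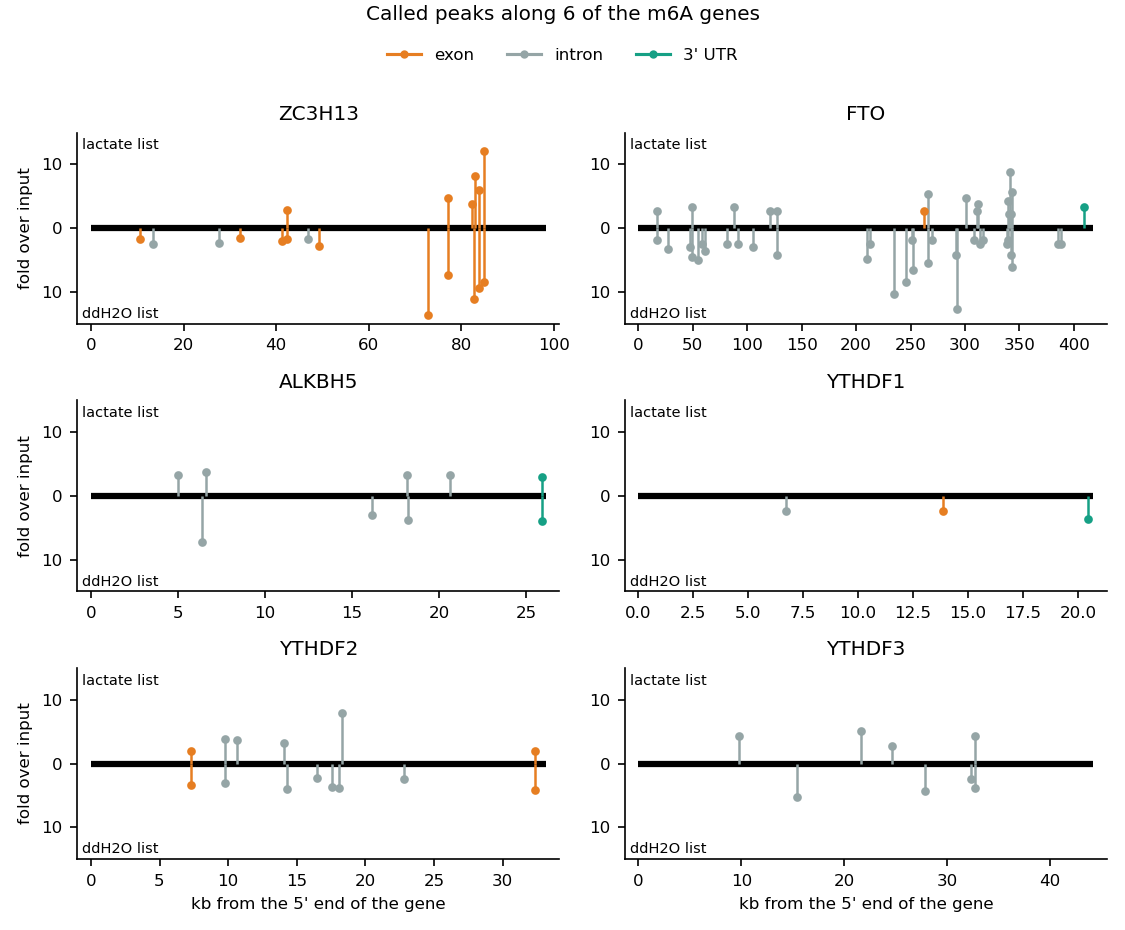
Fold over input of each called peak, plotted upward for the lactate list and downward for the ddH2O list, by distance in kb from the 5' end of 6 m6A genes, in color by region. The exon peaks of ZC3H13 with the highest folds stood between 72.8 and 84.8 kb, the 3' UTR peaks of ALKBH5 and YTHDF1 stood at the 3' end, and YTHDF1 had no lactate peak.

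The readers bind m6A in the cytoplasm. YTHDF1, linked to translation of marked mRNA (ENSG00000149658), had 3 ddH2O peaks and no lactate peak. The 3' UTR peak at chr20:63195355-63195947 stood 3.61-fold over the ddH2O input and lay 0.22 kb from the 3' end. Although the lactate list had no peak there, the lactate window held 101 reads (82.3 to 123), against 328 with ddH2O (293 to 365). The densities were 69.6 and 121, a log2 ratio of -0.79 (-1.14 to -0.48), and -0.83 under the sums. Sums over all windows put it at -1.72, a scaling under which 37.9% of all merged peaks with enough reads were over 2-fold lower. The missing peak did not mean missing reads. The exon and intron peaks of YTHDF1 held 4 and 7 reads over both libraries.

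YTHDF2, which leads marked mRNA to decay (ENSG00000198492), had peaks in exons and introns in both lists, 6 with lactate and 8 with ddH2O. The densest lay in the exon near the 3' end at chr1:28768795-28769125, with 204 lactate reads (177 to 234) and 392 ddH2O reads (354 to 433). The densities were 145 and 139, a log2 ratio of 0.06 (-0.19 to 0.31) and -0.08 under the sums, and -0.97 when the sums took in all windows, so the value rested on the scaling. The fold over input was 2.01 with lactate and 4.10 with ddH2O.

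The other YTHDF2 exon peak differed. At chr1:28743622-28744156, 7.27 kb from the 5' end, the window held 26 lactate reads (17 to 38.1) and 109 ddH2O reads (89.5 to 131). Its log2 ratio was -1.43 (-2.14 to -0.84), and -1.16 under the sums. Introns of YTHDF2 had 6 windows with at least 20 reads, at log2 ratios from -0.71 to 0.50, none past 2-fold. Under the sums 3 of these 6 were just past 2-fold higher, at 1.01 to 1.02, of which 2 share bases. The highest lactate fold of YTHDF2, 7.89, was at 1 of them, chr1:28754609-28755058. A processed copy of the gene, YTHDF2P1 on chromosome 14, also had an exon peak in both lists with 18 and 30 reads, and how reads were shared out between these near-identical copies was not analysed here.

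YTHDF3, the third YTHDF reader (ENSG00000185728), had 4 peaks in each list, all in introns, and 1 of its 7 merged peaks came from both lists. Its densest window, at chr8:63192995-63193418, held 19 lactate reads (11.4 to 29.7) and 6 ddH2O reads, densities of 10.8 and 3.23. The log2 ratio was 1.74 (0.51 to 3.50). At chr8:63183631-63184252, which had the highest ddH2O fold of YTHDF3 at 5.31, the reads were 2 and 23 and the ratio -2.85 (-6.51 to -1.36). The highest lactate fold, 5.03, was at chr8:63190058-63190312 with 9 lactate reads and 0 ddH2O reads. As in FTO, some intron windows of YTHDF3 were high in 1 condition or the other on few reads. Others were near equal, such as chr8:63201120-63201444, in both lists, with 7 lactate and 9 ddH2O reads and a log2 ratio of -0.16.

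**Figure D4:**
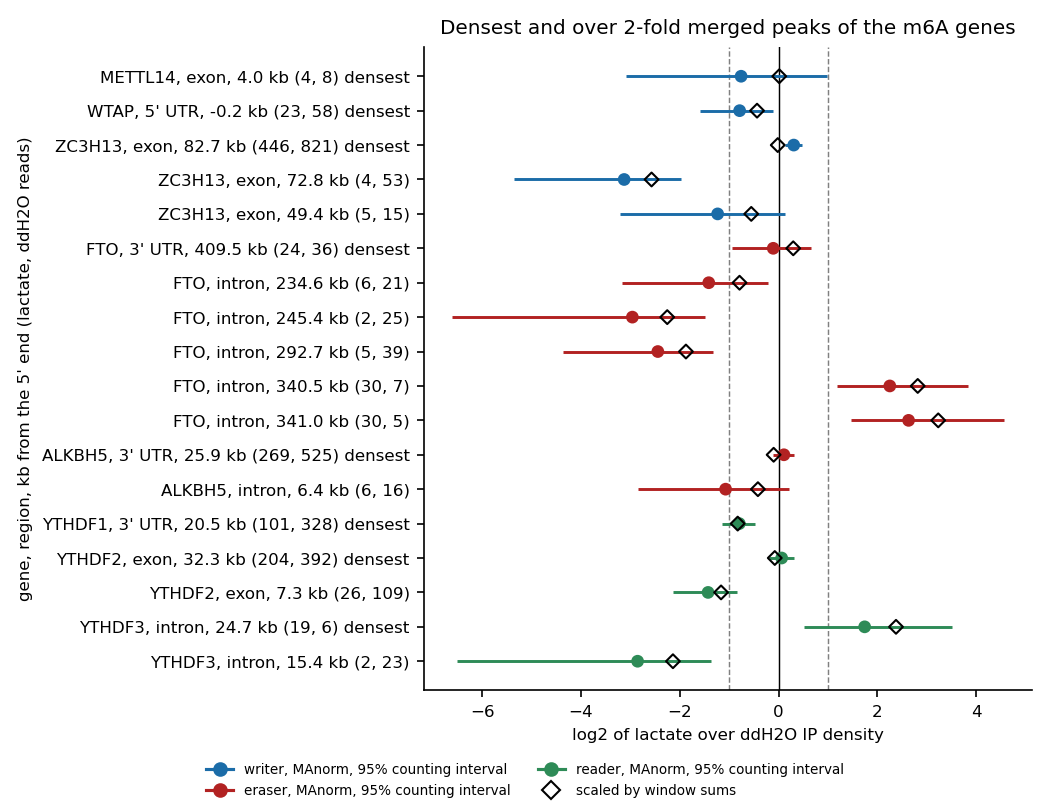
Log2 ratio of lactate over ddH2O IP density for the densest merged peak of 8 m6A genes and for every merged peak over 2-fold, labelled by region, distance from the 5' end and reads in each library. Filled points are MAnorm densities with exact 95% intervals of counting error, and open diamonds are reads scaled by window sums outside MT-RNR2 and MALAT1. The dashed lines mark 2-fold, and the points at dense windows of ZC3H13, ALKBH5 and YTHDF2 lay between 0.06 and 0.31.

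Read by role, the over 2-fold windows were 2 lower in writers, both on ZC3H13, 2 higher and 4 lower in erasers, and 1 higher and 2 lower in readers. Over all merged peaks with at least 20 reads, 7.65% were higher and 18.6% lower. A difference between roles was not tested. All 3 higher windows came from the lactate list alone and lay in introns. Of the 8 lower windows, 6 came from the ddH2O list alone, as did 5134 of the 7044 lower windows among all merged peaks, and 1155 of the 2903 higher ones came from the lactate list alone. Of the 8 lower windows of the m6A genes, 5 lay in introns and 3 in exons. Over all protein-coding genes, 13% of intron windows with at least 20 reads were over 2-fold higher and 17.3% lower. The shares were 2.12% and 22.7% of exon windows, and 2.28% and 15.5% of 3' UTR windows. Of the 10 windows of the m6A genes that were listed with ddH2O alone and held at least 20 reads, 4 were within 2-fold and 6 lower. Such windows were picked by their ddH2O peak, so this count is not a result about the m6A genes. Among all merged peaks listed with ddH2O alone, 5134 were lower and 251 higher, and those within 2-fold were not counted. With only the fullest window kept in each run of overlapping windows, a choice made after seeing the data, 64 windows remained, and ZC3H13 held 48.8% of their lactate reads and 48.8% of their ddH2O reads.

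The wider m6A machinery was counted for comparison, and a difference from the 10 genes was not tested. Of 17 further genes 16 had a merged peak, and METTL5, a methyltransferase of ribosomal RNA, had none. Over these genes 8 of 95 windows with at least 20 reads were higher (8.42%, 4.33 to 15.7%) and 7 lower (7.37%, 3.61 to 14.4%), beside 7.65% and 18.6% of all merged peaks. Under the sums 16 were higher and 1 lower (16.8% and 1.05%), beside 17% and 8.77% of all. The higher ones were 5 on IGF2BP3, 2 on IGF2BP2 and 1 on HNRNPC, all in introns. The lower ones were 2 each on METTL16, YTHDC2 and IGF2BP2 and 1 on IGF2BP1. The windows of each of these lower pairs share bases, and so do 3 of the 5 higher ones on IGF2BP3, so these are not separate observations. The 2 higher windows on IGF2BP2 share none. The genes with the densest windows were IGF2BP2 and IGF2BP3, in the 3' UTR, and RBMX, in the 5' UTR. Their densest windows held 792, 197 and 170 lactate reads and 1605, 380 and 261 ddH2O reads, at log2 ratios of 0.32, 0.05 and 0.31, which were -0.16, -0.08 and 0.25 under the sums.

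Readers and erasers of m5C, the mark that NSUN2 makes, were taken for comparison. YBX1 had no peak, ALYREF had 2 exon peaks with ddH2O alone, and TET1, TET2, TET3 and ALKBH1 had peaks in both lists. Of their 13 windows with at least 20 reads, 0 were over 2-fold higher and 5 were lower (38.5%, 17.7 to 64.5%), beside 7.65% and 18.6% of all merged peaks. The lower ones were 2 on ALKBH1, with the same reads, and 1 on each TET gene. Under the sums 1 was higher and 4 lower, beside 17% and 8.77% of all. Peaks on these 6 genes numbered 17 with lactate and 46 with ddH2O, a ratio of 2.71 beside 1.92 over all protein-coding genes, on few peaks.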

How the data were processed

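NSUN2 RIP-seq of 4 libraries was used, grouped by the sample labels. The submitters' processing notes name fastp 0.20.1, HISAT2 2.1.0, MACS2 2.2.7.1, bedtools 2.29.2, HOMER 4.11.1 and DiffBind with GRCh38. Peaks were called by the authors separately for the IPs, each with the matching input as control. For each peak the authors deposited a fold, which is a ratio of IP to input, with a p-value and a q-value, and a gene and region. The authors merged the peaks with MAnorm and deposited a normalized signal (read density) per IP library. They also deposited the log2 ratio, mean log2 density and P-value of their comparison, and these columns were not used.

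A merged peak was joined to a gene when it overlapped a peak with that gene symbol by 1 base. All merged peaks overlapped a called peak. Reads per window were computed back from both densities, taking each as the reads plus 1 per kb, with a straight line in mean log2 density taken off the log2 ratio, and were whole within 0.05 at 99.998% of the 116484 merged peaks. As a check, 4 times the product of both densities lay within 0.000585 of a whole number in windows under 60 reads. Ratio intervals are exact binomial intervals shifted by the same line, and read intervals are exact Poisson intervals. Molecular identifiers and the depth of the inputs were not given in the sources used here.

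A window was called at a ratio over 2-fold with at least 20 reads over both libraries, with no test. The text names all 10 genes with the densest merged peak and the peak of highest fold in each list, every called merged peak, and from the wider list genes without a peak, the 3 densest and those called. The genes and lists were chosen with earlier results of these data known. Gene spans and lengths are from RefSeq GRCh38.p14, in which 97.2% of peaks on protein-coding genes lay on the span of their gene. Alternatives were other scalings, minimums, folds, overlaps and stricter peaks. The work was run in Python 3.11.15 with scipy 1.17.1, matplotlib 3.10.9, pandas 2.3.3 and numpy 2.4.6.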

Additional observations from a re-analysis of the deposited data

How the results depend on the processing

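Limiting peaks to a q-value under 0.05 kept 18 of the 38 lactate peaks and 37 of the 67 ddH2O peaks of the m6A genes. A fold of at least 4 kept 13 and 23, since fewer peaks then count. The shares kept by the fold limit were 34.2% and 34.3%, beside 36.5% and 34% over all protein-coding genes. The m6A genes with a peak numbered 5 with lactate and 9 with ddH2O under the q-value limit, and 4 and 6 under the fold limit. Over all protein-coding genes with a peak the numbers also were lower with lactate, at 6774 and 9633, and 5759 and 7815. The intron share of ddH2O peaks was 48.6% without FTO. With an overlap of 50% of both peaks, 42.1% of the lactate peaks and 23.9% of the ddH2O peaks were shared. The shares over all protein-coding genes were counted at 1 base only.

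Windows over 2-fold higher numbered 3, and 6 under sums outside MT-RNR2 and MALAT1 (17% of all merged peaks), 3 under sums over all windows (3.94%), 12 of the 82 with no minimum of reads (13.9%), 0 at a minimum of 50 reads (3.71%) and 2 past 4-fold (1.12%). Windows over 2-fold lower numbered 8, and in the same order 5 (8.77% of all), 13 (37.9%), 30 (38.6%), 2 (11.1%) and 4 (4.55%). With 1 window per run of overlapping windows they were 2 and 8.

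The densest window of ZC3H13 had a log2 ratio of -0.0162 under sums outside MT-RNR2 and MALAT1. Under sums over all windows ZC3H13 stood at -0.91, ALKBH5 at -0.99, YTHDF1 at -1.72 and YTHDF2 at -0.97. This scaling lowers every window by the same step from the other sums, and the median of all merged peaks with enough reads was then -0.77. At the other densest windows the values lay within intervals that were wide on few reads. No ratio is given for METTL3, with 0 lactate and 7 ddH2O reads, below the minimum of 20 reads. No paired analysis was possible because each group had 1 library. Most windows were limited by depth, as 32 of 82 reached 20 reads.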
